A study of Arabidopsis thaliana with 10 samples.

Results

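In Arabidopsis thaliana, 6 genes that are catalogued as maternally expressed and imprinted were followed through endosperm of normal and of excess paternal dosage. They were FWA (AT4G25530), HDG8 (AT3G03260), HDG9 (AT5G17320), SDC (AT2G17690), ALN (AT4G04955) and MPC (AT3G19350), picked by their identifiers, 6 of the 37328 genes in the expression tables. The catalogue name did not describe all of them under paternal excess. FWA, HDG9 and SDC gave nearly all of their reads from the maternal allele, HDG8 and ALN gave similar numbers of maternal and paternal reads under paternal excess, and MPC had too few reads to judge. At normal dosage 23.6% of ALN reads were paternal, below the authors' reference of 33%. The 5th to 95th percentile of genes with at least 20 reads there was 8.35% to 62.2%, which holds this share. HDG8 had only 17 reads at normal dosage.

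The RNA came from endosperm dissected by hand, the tissue that nourishes the embryo, of seeds from crosses among several plants. Lethal paternal excess came from a Ler (Landsberg erecta) mother and a wild-type 4N (tetraploid) Col (Columbia) father. Viable paternal excess came from the same kind of mother and a 4N Col father mutant for nrpd1, the gene of the largest subunit of RNA polymerase IV, which makes the precursors of small RNAs that direct DNA methylation. Each group had 5 samples in 3 replicates, since replicates 1 and 2 were each sequenced in 2 parts. The sample labels give collection at 7 days after pollination, except for 1 sample of lethal replicate 1 at 8 days, whereas the text of the series says 6 days. The balanced group, a Ler by Col cross of normal dosage, was used only as the authors' values over 5 summed replicates of other series, so it carries no SD, and series, library batch and ploidy cannot be told apart in comparisons with it. Nothing in the labels says that the replicates came from separate plantings, so the p-values speak only of how far these samples differ among themselves, which may be technical.

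An imprinted gene is read mainly from the copy that came from 1 parent. In the endosperm, the maternal copies of many such genes lose DNA methylation in the central cell before fertilisation through the glycosylase DEMETER, while the paternal copies stay methylated and silent. RNA polymerase IV and the RNA-directed methylation that depends on it help to keep some paternal copies silent, and the balance of maternal and paternal genomes decides when the endosperm forms cell walls and whether a seed survives. FWA, HDG8 and HDG9 encode class IV homeodomain leucine zipper (HD-ZIP) transcription factors, SDC encodes an F-box protein, ALN encodes allantoinase, which opens the ring of allantoin in the breakdown of purines, and MPC encodes a protein like the C-terminal part of poly(A)-binding proteins.

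The reads that carry a sequence difference between Ler and Col give the allele counts used here, with Ler as the maternal and Col as the paternal allele. Libraries held 5692640 to 7983669 such reads in genes, and the balanced pool held 11895484. Levels are given as RPM, which is reads per 1000000 gene reads of this kind, and they do not correct for the number of distinguishing sites, so they are compared only within a gene. Replicate 3 of both groups stood apart by the number of genes with a read, 15829 in lethal replicate 3 and 13465 in viable replicate 3 whereas the other 4 libraries had 16560 to 17246. By the authors' references, 33% of reads would be paternal in balanced and 50% in paternal excess endosperm if every genome copy were read alike. The median gene with at least 20 reads had a paternal share of 33.8% in the balanced pool and of 50.5% and 50.6% in the lethal and viable crosses. A share under 10% was seen in 5.49%, 4.77% and 4.63% of these genes in the same order.

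FWA, the gene whose unmethylated copies delay flowering, lies on chromosome 4 at positions 13038360 to 13048262 of TAIR10, a locus that the authors' tables give jointly with the mismatch repair gene MSH3. Its level was 77.5, 130 and 31.2 RPM in lethal replicates 1 to 3. In viable replicates 1 to 3 it was 42, 46.2 and 11.8, and in the balanced pool it was 0.168, which was 2 reads. Every paternal excess library was thus far above the pool, and the lethal and viable libraries overlapped. How many of all genes had every library above the pool was not counted. The paternal allele of FWA gave 0 of 619, 0 of 955 and 0 of 231 reads in the lethal libraries, which allows paternal shares of up to 0.485%, 0.314% and 1.30%. In the viable libraries it gave 1 of 239, 0 of 291 and 0 of 79 reads, with limits of 1.03% and 3.8% where the count was 0. With either father FWA reads were thus maternal down to these limits, which cover counting error only, as do all the intervals below.

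HDG9, a class IV HD-ZIP gene expressed in the seed, lies on chromosome 5 at 5703139 to 5707637. Its level was 85.9, 153 and 36.8 RPM in the lethal, and 152.0, 190 and 61.6 in the viable replicates, against 15.2 in the balanced pool. Replicate 3 was the lowest of each group, as they were for FWA, and the groups overlapped. Paternal reads made up 0.875%, 2.31% and 0.366% of HDG9 reads in the lethal replicates. In the viable replicates they made up 9.71% (84 of 865 reads, Wilson 95% interval 7.91% to 11.9%), 6.36% (76 of 1195, 5.11% to 7.89%) and 0.243% (1 of 412, 0.0429% to 1.36%). Viable replicates 1 and 2 were above every lethal library and viable replicate 3 was below every one. The balanced pool had 3 paternal reads of 181, or 1.66% (Clopper-Pearson 95% interval 0.343% to 4.77%).

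SDC, whose promoter is normally kept silent in leaves by DNA methylation, lies on chromosome 2 at 7682162 to 7685202, a locus given jointly with AT2G17695. Its level was 20.9, 36.2 and 18.3 RPM in the lethal, and 21.8, 23.3 and 38.5 in the viable replicates, against 10.2 in the balanced pool. All 6 libraries were above the pool, and the groups overlapped. The share of all genes with all 6 libraries above the pool was not counted. Paternal reads numbered 0 of 167, 0 of 266 and 1 of 136 in the lethal replicates and 0 of 124, 0 of 147 and 13 of 257 in the viable ones. The last is a share of 5.06% (Wilson 2.98% to 8.46%), and viable replicate 3 alone stood out. The paternal share of AT2G17695 was also highest in that library, 59.5% (75 of 126 reads), against 29.2% and 29.0% in viable replicates 1 and 2. A link between these shares was not tested. The pool had 0 of 121, which allows up to 2.48%.

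HDG8, a relative of HDG9 with the lowest level of the 6 in balanced endosperm by FPKM (reads scaled to transcript length and library size), lies on chromosome 3 at 755159 to 759282. Its level was 163, 418 and 267 RPM in the lethal, and 353, 376 and 207 in the viable replicates, against 1.43 in the balanced pool, which was 17 reads. Both alleles contributed to this. The maternal allele gave 72.5, 180 and 125 RPM in the lethal and 167, 168 and 108 in the viable replicates, and the paternal allele 90.1, 238 and 141 in the lethal and 186, 208 and 98.8 in the viable ones. Paternal reads made up 55.1% ± 2.01 (SD, n = 3) in lethal and 51.9% ± 3.86 (SD, n = 3) in viable endosperm. In the pool 5 of 17 reads were paternal, 29.4% (Clopper-Pearson 10.3% to 56.0%), an interval that holds the reference of 33%.

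ALN lies on chromosome 4 at 2522034 to 2525352. Its level was 868, 345 and 449 RPM in the lethal, and 455, 490 and 296 in the viable replicates, against 265 in the balanced pool. All 6 libraries were above the pool, lethal replicate 1 most of all, and here too the share of all genes like this was not counted. Paternal reads made up 53.6% ± 2.36 (SD, n = 3) in lethal and 51.8% ± 0.804 (SD, n = 3) in viable endosperm, close to the median gene. In the balanced pool the paternal share was 23.6% of 3156 reads (Clopper-Pearson 22.2% to 25.2%), below the reference of 33%. It lay within the spread of the 12214 genes with at least 20 reads in the pool, whose 5th to 95th percentile was 8.35% to 62.2%.

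MPC lies on chromosome 3 at 6705474 to 6706127 and was near the limit of detection in allele reads. It had 1, 1 and 5 maternal reads in the lethal replicates and 8 in the balanced pool, and no paternal read in any of these. The viable replicates had 0 maternal reads, and 1 paternal read in replicate 2 was the only one of the group. With 15 reads in lethal and balanced endosperm together, its allele use could not be tested.

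**Figure D1:**
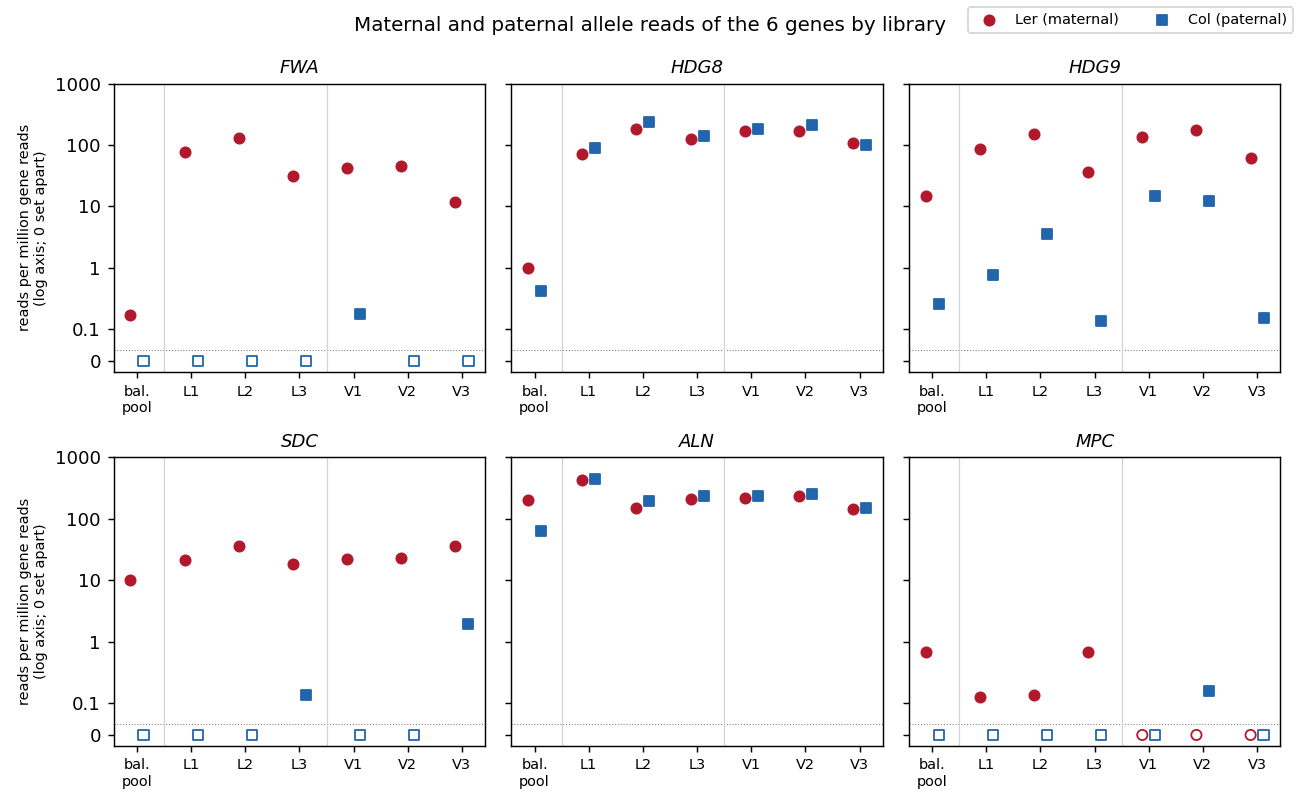
Reads of the Ler (red circles) and Col (blue squares) allele in RPM, log axis with 0 set apart below the dotted line (open symbols), in the balanced pool, lethal replicates 1 to 3 (L1 to L3) and viable replicates 1 to 3 (V1 to V3). For FWA, HDG9 and SDC the red points are far above the blue ones, for HDG8 and ALN the points lie together in paternal excess, and MPC has single reads.

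**Figure D2:**
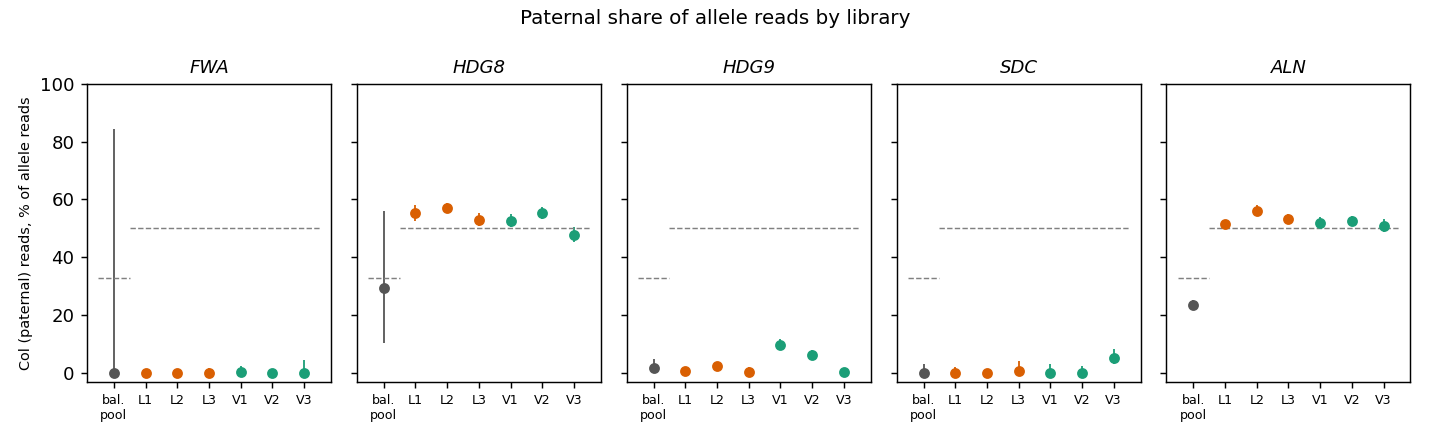
Share of Col reads among allele reads, in percent, with Wilson 95% intervals for the lethal (orange, L1 to L3) and viable (green, V1 to V3) libraries and Clopper-Pearson intervals for the balanced pool (grey), and the authors' references of 33% and 50% as dashed lines. FWA, HDG9 and SDC lie at 9.71% or below in every library. HDG8 and ALN lie near 50% in the lethal and viable libraries, and at 29.4% and 23.6% in the pool. The FWA interval of the pool is wide because it rests on 2 reads.

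Within each cross the paternal and maternal reads of every gene were compared by edgeR's quasi-likelihood F test, with the library as a block and equal reads as the reference. Of the 5 genes with enough reads, FWA, HDG9 and SDC were lower from the paternal allele in both crosses and none was higher, at a Benjamini-Hochberg adjusted p under 0.05. Among all 12723 genes tested, 9.0% were called lower from the paternal allele in lethal and 7.68% in viable endosperm, and 11.1% and 10.6% higher. The log2 paternal to maternal difference of HDG9 was -6.08 ± 0.593 (SE, edgeR adjusted p 3.88e-05) in lethal and -4.10 ± 0.488 (SE, edgeR adjusted p 0.000181) in viable endosperm. For SDC the fitted difference was -8.64 (edgeR adjusted p 5.64e-05) in lethal and -5.55 (edgeR adjusted p 0.00017) in viable, and for FWA -12.10 (edgeR adjusted p 1.08e-06) and -8.82 (edgeR adjusted p 4.68e-06). The sizes for SDC and FWA depend on the prior count that edgeR adds to libraries with 0 paternal reads, and are no bound. The viable value of SDC also rests on the 13 paternal reads of replicate 3, without which it was -10.20 (edgeR adjusted p 3.93e-06). HDG8 and ALN did not pass. HDG8 was at 0.30 ± 0.109 (SE, edgeR adjusted p 0.0863) in lethal and 0.11 ± 0.109 (SE, edgeR adjusted p 0.549) in viable endosperm, and ALN at 0.21 ± 0.0855 (SE, edgeR adjusted p 0.132) and 0.10 ± 0.086 (SE, edgeR adjusted p 0.494). Without viable replicate 3, which enters the shared estimate of spread, the lethal HDG8 difference of 0.30 had an edgeR adjusted p of 0.0271.

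Seed coat is purely maternal tissue that can cling to dissected endosperm, so 15 of its marker genes were read beside these shares. Their summed level was 806 to 1181 RPM over the lethal and 620 to 758 over the viable libraries, and 1088 in the balanced pool, and 0.29% to 1.42% of their reads were paternal in the 6 libraries. In this summed level the lethal libraries were all above the viable ones, and 13.9% of 12674 single genes had crosses that did not overlap. For 8 single markers tested between the crosses by edgeR the median log2 difference was -0.61, beside -0.05 over all genes. None of them was called, nor was any of the 12674 genes. AHA10, TT2 and TT12, a proton pump, a MYB factor and a transporter that define the pigmented seed coat, had 0 allele reads in every library, but not 0 FPKM. TT2 had 1.32, 1.99 and 1.27 FPKM and AHA10 had 0.433, 0.826 and 0.51 in the balanced, lethal and viable groups of the authors' deposited table, and neither was called. The part of seed coat RNA in the maternal shares of FWA, HDG9 and SDC was not tested. Summed levels of 11 embryo markers were 4.72 to 24.8 in lethal, 2.54 to 28.6 in viable and 55.6 RPM in balanced endosperm, counted in allele reads. CUC1, CUC3, WUS and PLT2 had 0 allele reads in every library, which says little of their expression. CUC1, a boundary factor of the embryo, had 32.4, 0.702 and 6.07 FPKM in the balanced, lethal and viable groups of the authors' deposited table and was called lower in both crosses. It does not stand for the list. Of the embryo markers, 3 of 9 tested were called higher and 1 lower in lethal endosperm per the authors' deposited table. In viable endosperm 0 of 8 were called higher and 3 lower. Over all genes tested, 17.5% were called higher and 16.6% lower in lethal, and 14.2% and 12.9% in viable endosperm. In such bulk tissue, fewer cells of a type and less RNA per cell cannot be told apart.

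Against balanced endosperm, 3 of the 6 genes were higher in the lethal cross and 2 in the viable cross by the authors' test, a q-value under 0.05 from Cuffdiff, and none was lower. Per the authors' deposited table, 17.5% of the 23552 genes tested were higher and 16.6% lower in lethal endosperm, and 14.2% of 23073 were higher and 12.9% lower in viable endosperm. The median log2 change of FPKM plus 1 over the 6 genes was 1.39 in lethal and 1.51 in viable endosperm, beside 0.06 and 0.03 over all genes tested. Both comparisons share the balanced samples.

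HDG8 rose from 0.276 FPKM in balanced to 42.7 in lethal (155-fold, q 0.00035) and 49.8 in viable endosperm (180-fold, q 0.00048) per the authors' deposited table. That moved it from percentile 44.7 of all genes by FPKM to 89.8 and 91.4. In allele reads the maternal copy was 123-fold higher in the lethal than in the balanced pool (95% counting interval 70.5 to 239) and the paternal copy 368-fold (158 to 1135), and the intervals overlap. In the viable cross these ratios were 145 (82.8 to 281) and 386 (165 to 1188). Ratios of single alleles to balanced include the change of dosage, for which the paternal references are 33% and 50%.

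FWA went from 0.509 to 87.9 FPKM in lethal endosperm per the authors' deposited table, 173-fold with a q of 0.049. In viable endosperm it stood at 37.4 FPKM per the authors' deposited table, 73.4-fold with a q of 0.0666, and was not called. The lethal call is close to the threshold and is lost at a q under 0.01. In maternal reads the ratio to balanced was 472 (counting interval 130 to 3899) in lethal and 194 (53.4 to 1602) in viable endosperm, both resting on 2 balanced reads. Every library was at least 70.3 times the pool. MSH3, which shares the locus, had 1.62, 4.03 and 4.76 FPKM in the balanced, lethal and viable groups of the authors' deposited table and was not called. MSH3 reads came from both alleles except in viable replicate 3, which had 17 Col and 0 Ler reads. Its paternal share was 35.8% in lethal replicate 1 (34 Col and 61 Ler reads) and 83.3% in lethal replicate 3. The sources used here do not say how reads were divided between these overlapping genes, so the FPKM of FWA and of SDC are less certain than those of the other 4 genes.

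HDG9 rose from 8.32 FPKM to 37.0 in lethal (4.45-fold, q 0.00035) and 53.0 in viable endosperm (6.37-fold, q 0.00048) per the authors' deposited table. Its maternal reads were 6.02 times the balanced level in lethal (counting interval 5.17 to 7.06) and 8.27 times in viable endosperm (7.10 to 9.68). Its paternal reads were 5.75 times (1.80 to 29.3) and 34.2 times (11.5 to 167) a balanced level of 3 reads. Of the 33 lethal paternal reads 26 came from replicate 2, the ratio ranged from 0.535 to 14 over the lethal libraries, and without replicate 2 it was 1.80. The pooled viable paternal ratio comes from replicates 1 and 2, and in replicate 3 alone the ratio was 0.593.

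SDC, ALN and MPC were not called against balanced. SDC had 10.3 FPKM in balanced endosperm, with 11.3 in lethal (q 0.907) and 14.8 in viable endosperm (q 0.559) per the authors' deposited table, a ratio of 1.10 and 1.43. Its allele RPM gave larger ratios, 2.46 (counting interval 2.02 to 3.02) in lethal and 2.78 (2.28 to 3.41) in viable endosperm. AT2G17695, on the same locus, went from 25.1 to 14.9 and 13.7 FPKM per the authors' deposited table (q 0.367 and 0.296), and 15.1% of its balanced reads were paternal.

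ALN stood at 55.4 FPKM in balanced endosperm, and at 93.6 in lethal (q 0.179) and 68.4 in viable endosperm (q 0.584) per the authors' deposited table. Its alleles differed in their ratio to balanced. The maternal reads of ALN were at 1.31 times the balanced level in lethal (counting interval 1.25 to 1.37) and 0.974 times in viable endosperm (0.925 to 1.03), and the paternal reads at 4.74 (4.39 to 5.11) and 3.39 times (3.13 to 3.67). The paternal ratio was 3.08 to 7.11 over the 3 lethal and 2.41 to 4.10 over the 3 viable libraries, and the maternal ratio 0.747 to 2.08 and 0.718 to 1.15, so the ranges of the alleles did not overlap within either cross. Without lethal replicate 1 the lethal ratios were 0.891 for the maternal and 3.45 for the paternal reads. These ratios include the change of the paternal reference from 33% to 50%, which by itself sets the paternal ratio above the maternal one. The single replicates of the balanced group were not used, so its spread was not estimated and the difference between the alleles was not tested.

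MPC had 1.93 FPKM in balanced endosperm, with 0.896 in lethal (q 0.259) and 0.624 in viable endosperm (q 0.236) per the authors' deposited table. Its 7 lethal and 8 balanced maternal reads gave a ratio of 0.457 after scaling to library size (counting interval 0.141 to 1.44). Per length of transcript the order of the 6 genes in lethal endosperm was ALN, FWA, HDG8, HDG9, SDC and MPC per the authors' deposited table, and in balanced endosperm it was ALN, SDC, HDG9, MPC, FWA and HDG8. These FPKM carry no spread, so neighbours in the order cannot be tested.

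**Figure D3:**
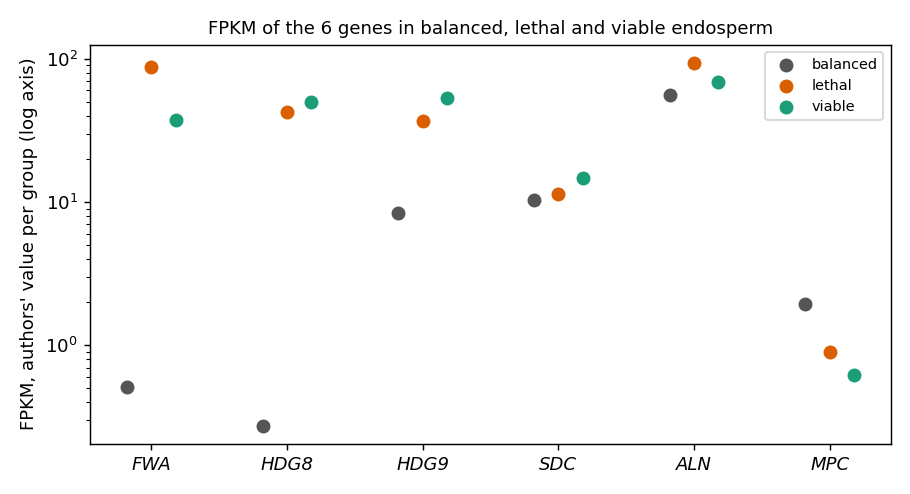
FPKM of each gene as the authors' tables give it per group, log axis, in balanced (grey), lethal (orange) and viable (green) endosperm. FWA and HDG8 lie below 1 in balanced and above 30 in both paternal excess groups, HDG9 is higher by 4.45-fold and 6.37-fold, and SDC, ALN and MPC were not called.

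Several endosperm markers differed between balanced and paternal excess at the same time. PHE1, a MADS-box gene read from the paternal copy in young endosperm, had 1.5 FPKM in balanced and 429 in lethal endosperm per the authors' deposited table, and 340 in viable. AGL62, a MADS-box gene that holds back the formation of cell walls, had 0.0994, 3.66 and 0.853 FPKM per the authors' deposited table, and was called in lethal (q 0.00035) but not in viable endosperm (q 0.0544). EPR1, an extensin-like gene of the endosperm, went the other way, from 1361 to 1.31 and 36.3 FPKM per the authors' deposited table. Summed over the 7 endosperm markers, the level was 184 to 452 RPM in lethal, 563 to 1126 in viable and 26966 in balanced endosperm, where PHE1, IKU2 and MINI3 had 0 allele reads. The single markers did not all follow this sum. Of 6 tested, 3 were called higher and 3 lower in lethal, and 2 higher and 2 lower in viable endosperm, per the authors' deposited table. The shares over all genes tested were 17.5% higher and 16.6% lower in lethal, and 14.2% and 12.9% in viable endosperm. The median log2 change of the endosperm markers was 0.015 in lethal and -0.059 in viable endosperm. The part of what these markers follow in the changes of FWA, HDG8 and HDG9 was not tested. Of the seed coat list, 0 of 14 tested markers were called higher and 3 lower in each cross per the authors' deposited table. The same shares over all genes stand beside these counts. The median log2 change of the list was 0.35 in lethal and -0.23 in viable endosperm, beside 0.06 and 0.03 over all genes tested.

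Whether a father without NRPD1 changes these genes was asked by the direct comparison of the viable and lethal crosses. None of the 5 genes tested was called in total reads by edgeR, where 0.00% of 12674 genes were called and 865 had an unadjusted p under 0.05. DESeq2 called 189 genes, edgeR with the replicate number as a block called 117, and the authors' Cuffdiff table called 614 of 24437 (2.51%), none of them among the 6. The libraries of the 2 crosses overlapped in total reads for all 6 genes, whereas 13.9% of the 12674 genes had libraries that did not overlap.

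FWA had the largest difference among the 5. Its log2 difference, viable minus lethal, was -1.31 ± 0.552 (SE, edgeR unadjusted p 0.0414, adjusted p 0.708), and within the pairs of replicate numbers it was -1.28 (edgeR adjusted p 0.0737). Within each number the viable library was lower, 42 against 77.5, 46.2 against 130 and 11.8 against 31.2 RPM. The mean was 79.5 RPM in lethal and 33.3 in viable libraries and did not pass an exact permutation test (two-sided p = 0.3, where 0.1 is the smallest p possible with 3 against 3 libraries). The authors' deposited table gave 95.8 FPKM in lethal and 41.1 in viable endosperm (q 0.131). The summed level of the seed coat markers was also lower in the viable libraries, as given above, and their part was not tested.

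The other 4 genes differed less. HDG9 was at 0.50 ± 0.503 (SE, edgeR adjusted p 0.949), and at 0.60 with the replicate block (edgeR adjusted p 0.326). HDG8 was at 0.08 ± 0.398 (SE, edgeR adjusted p 0.999), SDC at 0.20 ± 0.442 (SE, edgeR adjusted p 0.989) and ALN at -0.46 ± 0.398 (SE, edgeR adjusted p 0.93). The sign for SDC rests on viable replicate 3, without which it was -0.29. MPC was below the count filter and had 0 maternal reads in the viable libraries against 1 to 5 in the lethal ones.

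The paternal share was compared between the crosses through the interaction of allele and cross. Over all 12723 genes 8 were called by edgeR, 0.0629% of them, and 532 had an unadjusted p under 0.05, and none of the 5 genes was among the 8. HDG9 had a log2 change in its paternal to maternal ratio of 1.98 ± 0.805 (SE, edgeR unadjusted p 0.0333, adjusted p 0.971). Its mean share was 1.18% ± 1.01 (SD, n = 3) in lethal and 5.44% ± 4.80 (SD, n = 3) in viable endosperm. An exact permutation test of the share gave a two-sided p of 0.4, where the smallest possible is 0.1, so it could not pass at 0.05. Without viable replicate 3 the HDG9 change was 2.48 and passed (edgeR adjusted p 0.0381), and without replicate 3 of both groups it was 2.28 (edgeR adjusted p 0.0287). Viable replicate 3 also had the fewest genes with a read. The SDC interaction was 3.09 ± 1.55 (SE, edgeR adjusted p 0.971) and turned to -1.54 without viable replicate 3, whose 13 paternal reads carry it. HDG8 was at -0.19 ± 0.154 and ALN at -0.11 ± 0.121 (SE, edgeR adjusted p 0.971 for each). For FWA the fitted interaction of 3.28 ± 1.74 (SE, edgeR adjusted p 0.971) rests on 1 paternal read.

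FWA, HDG8 and HDG9 belong to a family of 16 class IV HD-ZIP genes. Of the other 13, 10 had enough allele reads to test, and these ranged from mostly maternal to mostly paternal reads. HDG10 and HDG3 were called higher from the paternal allele in both crosses and GL2, a factor of the epidermis and seed coat, was called lower, 3 of the 10 tested. HDG3, a known paternally expressed gene, had 86.5% ± 2.63 (SD, n = 3) paternal reads in lethal and 88.5% ± 0.416 (SD, n = 3) in viable endosperm, and 85.7% in the balanced pool. HDG10 had 97.9% ± 1.96 (SD, n = 3) and 95.5% ± 4.64 (SD, n = 3), with 0 allele reads in balanced. GL2 had 1.65% ± 0.0604 (SD, n = 3) and 2.45% ± 1.05 (SD, n = 3), with 16.2% in balanced. HDG8 lay among the genes read from both alleles, such as ANL2 at 55.0% ± 2.85 (SD, n = 3) and HDG11 at 52.9% ± 4.82 (SD, n = 3) in lethal endosperm.

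**Figure D4:**
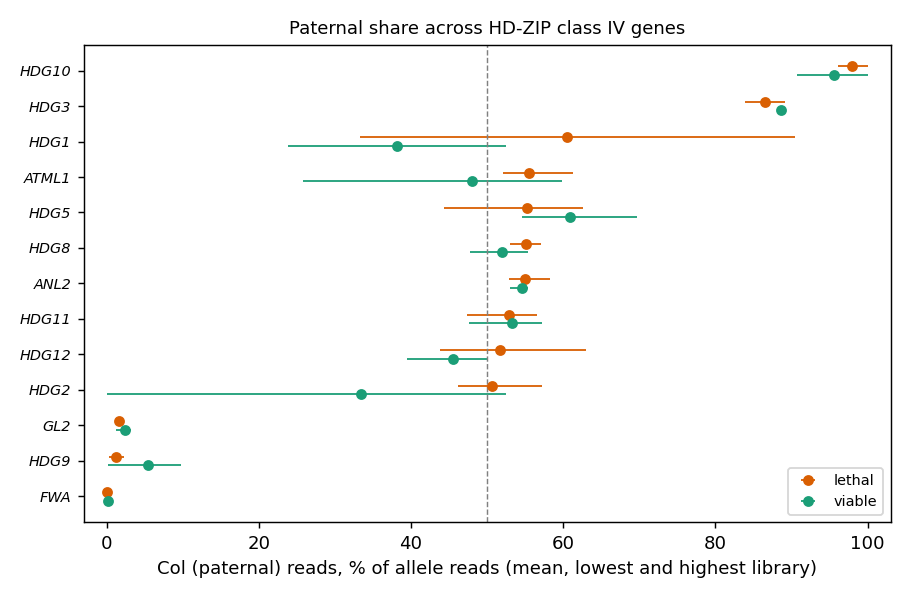
Share of Col reads among allele reads, in percent, of the class IV HD-ZIP genes with at least 20 reads in each cross, as the mean (point) and the lowest to highest library (line) in lethal (orange) and viable (green) endosperm, with 50% dashed. FWA, HDG9 and GL2 sit at the maternal end, HDG3 and HDG10 at the paternal end, and HDG8 in the group around 50%.

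In the level of the family against balanced, 5 of 12 other genes tested were higher and 3 lower in lethal, and 5 higher and 1 lower in viable endosperm, per the authors' deposited table. Among all genes tested, 17.5% were higher and 16.6% lower in lethal, and 14.2% and 12.9% in viable endosperm. HDG3 rose from 32.1 FPKM to 679 and 870, and HDG11 from 0.264 to 23.4 and 17.6 per the authors' deposited table. ATML1, a regulator of epidermal identity, rose from 2.63 to 63.2 and 23.7 FPKM per the authors' deposited table. HDG10 went from 0.00802 to 16.9 and 5.94 FPKM without a call per the authors' deposited table (q 0.39 and 0.425). Between the crosses, ATML1 (q 0.0497) and HDG10 (q 0.0425) were lower in viable endosperm per the authors' deposited table, and edgeR called neither (adjusted p 0.732 and 0.823).

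Among 7 other genes listed as maternally expressed, 2 were higher in both crosses per the authors' deposited table, and 1 of 6 tested was lower in the viable one. Beside this, 17.5% of all genes tested were higher in lethal endosperm, and 14.2% were higher and 12.9% lower in viable endosperm. AT3G23060 rose from 0.279 FPKM to 17.4 and 5.91, and was lower in viable than lethal endosperm (q 0.00732) per the authors' deposited table, where edgeR gave an adjusted p of 0.816. FH5, a formin that nucleates actin, rose from 2.00 to 13.4 and 10.4 FPKM per the authors' deposited table, and its paternal share was 52.5% ± 5.76 (SD, n = 3) in lethal and 57.9% ± 3.32 (SD, n = 3) in viable endosperm. AT4G18650 was listed at 0 in viable endosperm, from 0.276 FPKM in balanced (q 0.000885 per the authors' deposited table). FIS2, a subunit of the seed Polycomb complex, had 2.23% ± 2.22 (SD, n = 3) paternal reads in lethal and 0.375% ± 0.649 (SD, n = 3) in viable endosperm. FIS2 and AT3G23060 were called lower from the paternal allele in both crosses, 2 of the 3 tested, and FH5, like HDG8 and ALN, was not.

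Of 6 other genes of purine breakdown tested, 4 were lower and none higher than in balanced in both crosses per the authors' deposited table. Of all genes tested, 16.6% were lower and 17.5% higher in lethal, and 12.9% and 14.2% in viable endosperm. UAH, the ureidoglycolate amidohydrolase, fell from 91.1 FPKM to 15 and 22.6, and UOX, the urate oxidase, from 76.4 to 28.0 and 33.3 per the authors' deposited table. UGLYAH, which acts between ALN and UAH, fell from 30.5 to 11.2 and 9.03 FPKM, and AAH, the allantoate amidohydrolase, from 34.2 to 16.6 and 18.1 per the authors' deposited table. The other 2, XDH1 and TTL, were not called, nor was ALN itself.

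Of 8 poly(A)-binding protein genes, the relatives of MPC, 6 were tested, and 1 was higher and 1 lower in lethal and 1 higher in viable endosperm. These counts lie near the shares over all genes, 17.5% higher and 16.6% lower in lethal, and 14.2% and 12.9% in viable endosperm. PAB5 rose from 3.59 FPKM to 250.0 and 178 per the authors' deposited table, and PAB7 fell from 21.6 to 6.43 in lethal (q 0.00035) and stood at 11.6 in viable endosperm (q 0.0747). Of 12 genes of DNA methylation and demethylation, 5 were higher and 4 lower in lethal, and 5 higher and 2 lower in viable endosperm, per the authors' deposited table. The same shares over all genes stand beside these counts too. ROS1, a DNA glycosylase that removes methylation, fell from 29.8 FPKM to 3.14 and 8.59, and CMT3, a non-CG methyltransferase, rose from 4.34 to 23.4 and 20.7 per the authors' deposited table. DRM2, the methyltransferase that small RNAs direct, fell from 26.8 to 7.32 and 12.6 FPKM per the authors' deposited table. RDR2, which copies the transcripts of RNA polymerase IV into double strands, dropped to 1.37 from 6.81 FPKM in lethal and stood at 4.04 in viable endosperm (q 0.108) per the authors' deposited table. ROS1 (q 0.0128) and RDR2 (q 0.0219) were higher in viable than lethal endosperm per the authors' deposited table, where edgeR gave adjusted p-values of 0.491 and 0.732. MET1, DME and NRPD1, the maintenance methyltransferase, the glycosylase of the central cell and the mutated gene itself, had 5.53, 2.64 and 6.96 FPKM in lethal and 5.78, 4.02 and 5.71 in viable endosperm per the authors' deposited table.

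Over the 6 libraries, the genes whose centred log2 CPM (RPM scaled by TMM) lay nearest to each of the 5 were sought by Euclidean distance among 12673 others. Nearest to FWA was AT2G25460 at a distance of 0.417 (the median gene was at 2.64), then LON3 and AT3G07270. Nearest to HDG9 was RBR1, the retinoblastoma-related cell cycle regulator, at 0.247 (median 2.21), then SUS1, a sucrose synthase, and AT2G01130. RBR1 had 4.94, 9.23 and 2.43 CPM in the lethal and 7.88, 9.28 and 3.75 in the viable libraries, with replicate 3 lowest in both groups as in HDG9. RBP47C', AT1G09640 and TFL2 were nearest to HDG8, the first at 0.209 (median 1.75). AT3G49725, SKP1 and CASP were nearest to SDC, the first at 0.332 (median 1.78), and AT5G65400, AT4G13690 and AT1G01730 to ALN, the first at 0.137 (median 1.75). These distances follow differences between replicates as much as between crosses, and describe 6 libraries only.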

How the data were processed

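In the deposited allele tables the authors give, per gene and replicate, counts of reads that came from the Ler or the Col allele, with the parts of a replicate already summed. For balanced endosperm only the authors' counts and percent of Col reads over 5 summed replicates were used, and 10 columns of its single replicates were left out. The deposited expression tables give each group 1 FPKM value and each gene, per the file headers, a p-value and a q-value from Cuffdiff, scaled separately in each table. Per the submitters' processing notes the tools were Trim Galore, FastQC, TopHat, Bowtie and Cuffdiff on TAIR10. The sources used here do not give their versions, the rule for assigning alleles or the handling of overlapping genes. Per the labels' protocols, a micro-scale RNA kit and a low-input polyA library kit were used, so reads are not independent molecules. Rows that name no gene held 5.96% to 9.66% of the assigned reads and were left out.

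Ler plus Col counts of viable and lethal libraries were compared by edgeR 4.0.16 quasi-likelihood tests in R 4.3.3, with TMM scaling and filterByExpr. Allele comparisons used Ler and Col counts as separate columns with the library as a block, for genes with at least 10 allele reads in each of 3 libraries, and the allele by cross interaction for the share. Each standard error was taken as the log2 difference divided by the square root of F. Alternatives were DESeq2 1.42.0, limma 3.58.1 on log2 ratios with a pseudocount of 0.5 or 2, other scaling, no count filter, a replicate block and each library left out. Exact permutation tests and binomial intervals used scipy 1.17.1 in Python 3.11.15, and a count of 0 was given the limit of 3 reads. The numbers of the replicates were treated as pairs where deviations from the group mean correlated above 0.1 for every equal number, and over 12674 genes they did (0.114, 0.475 and 0.432), though lethal replicate 2 with viable replicate 1 gave 0.155. No 2 replicates agreed within sampling noise (mean chi-square per gene 15.3 to 163).

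All 6 genes are named. From other lists, genes called in a comparison with balanced or between the crosses were named, up to 4 a list by the change in lethal endosperm, and further genes named (GL2, FIS2, ANL2, MET1, DME, NRPD1, MSH3, AT2G17695, XDH1, TTL and the cell type markers) were chosen after their values were seen. The genes, lists and tests were chosen with earlier results of these data known. Symbols come from a reference table that matched 37043 of 37328 identifiers.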

Additional observations from a re-analysis of the deposited data

How the results depend on the processing

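The number of genes called in total reads between the crosses was 0, against 117 with the replicate block, 81 with no count filter, 189 with DESeq2 and 614 in the authors' Cuffdiff comparison, and it was 0 (lowest and highest) with each library left out. The 8 genes called for a changed paternal share became 0 with limma at either pseudocount, 0 with limma and the replicate block, 45 with no count filter, 0 to 28 with each library left out (28 without viable replicate 3) and 48 without replicate 3 of both groups, an alternative chosen after seeing the data. Paternal against maternal calls in lethal endosperm, 2562 genes, ranged from 1537 to 3603 with each library left out, with 1537, 1668 and 1648 without lethal replicates 1, 2 and 3. For the 6 genes, 251 of the values under alternatives were counted as unchanged in direction and side of the threshold, 5 reversed, 4 passed and 1 no longer passed. The 251 overstate stability. They include values at a q under 0.01 and for genes of at least 1 FPKM, whose direction could not change. They also include allele RPM against balanced, which had no test and so no side of the threshold. The reversed ones were the SDC share change without viable replicate 3 (-1.54; -1.54 to 5.0 with each library left out), the SDC total without viable replicate 3 (-0.29) and without replicate 3 of both groups (-0.37; -0.29 to 0.50 with each library left out), and the HDG8 total without lethal replicate 1 (-0.17) and without viable replicate 2 (-0.0075; -0.17 to 0.41 with each library left out), none of them called. The lethal HDG8 allele difference passed without viable replicate 3 and without replicate 3 of both groups (0.36, edgeR adjusted p 0.0226), and so did the HDG9 share change, as given above. The cause was not tested. The replicate block changed no call among the 5 genes fitted, and MPC was below the count filter. FWA, HDG9 and SDC stayed called as maternal in both crosses with each library left out. Depth limits MPC throughout, and the balanced values of FWA and HDG8 rest on 2 and 17 allele reads.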
